A study of Mus musculus with 4 samples.

Results

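Accessible chromatin was described at 9 receptor tyrosine kinase genes of fibroblasts, which are Pdgfra, Pdgfrb, Fgfr1, Fgfr2, Egfr, Igf1r, Met, Axl and Ddr2, in mouse 10T1/2 cells that lack or carry Ranbp2. These are 9 of 21887 protein-coding genes and were taken by name, with earlier results of these data known. Only 2 of them, Fgfr1 and Fgfr2, encode fibroblast growth factor receptors, so the set is called here by the wider family. A peak belonged to a gene when its summit lay inside the RefSeq gene span or within 100 kb of it, and overlapping peaks of the 4 lists were counted as 1 site. The 9 genes had 89 sites, of 35204 such sites within 100 kb of any protein-coding gene. The knockout group (KO) was 2 ATAC-seq libraries of a clone grown from 1 sorted cell after CRISPR-Cas9 cutting of Ranbp2, which encodes a nucleoporin that binds Ran. The wild-type group (WT) was 2 libraries of 10T1/2 cells, an embryonic fibroblast line, with Ranbp2 intact. Each library was prepared from 50000 cells. The labels give both groups the same culture medium and do not state whether replicates were separate cultures, so p-values measure the spread between these libraries only. With 1 clone, the loss of Ranbp2 and any other property of that clone cannot be told apart.

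Receptor tyrosine kinases are single-pass membrane proteins that act in pairs and phosphorylate each other on tyrosines when a ligand, such as a growth factor, binds. Adaptors such as Grb2 and Shc1 dock on these tyrosines and switch on Ras and MAP kinase signalling, which the Sprouty proteins and Dusp phosphatases damp. The receptors also switch on phosphoinositide 3-kinase and phospholipase C signalling. In fibroblasts these receptors drive division, migration and matrix production. PDGF receptors are also common surface markers of mesenchymal cells.

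The deposited lists held 13877 and 24292 peaks for KO replicates 1 and 2, and 33721 and 18511 peaks for WT replicates 1 and 2. Sites of the 9 genes present in the lists numbered 39 and 50 in KO and 77 and 46 in WT libraries, so the longest list held the most. The fold given below is the enrichment at the summit over local background that the authors' peak caller wrote for that library. The percentile ranks a peak by its −log10 q within its own list, with 100 for the strongest. Folds and percentiles of lists of different length describe each list and show no change by themselves. For comparisons every list was also reduced to its 13877 strongest peaks, which are called equal lists. No read counts were given, so the depth of each library is unknown and a site missing from a list may only be below its threshold.

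Start regions of the receptors differed in their base composition and in whether a peak lay on them. RefSeq start windows (GRCm38.p6, 250 bases before to 50 after the start) were found for 7 of the 9 genes, and those of Axl and Egfr are shown because a peak overlapped them, that of Igf1r because its peak lay just upstream, and that of Pdgfra because none did. They run 5′ to 3′ on the gene's own strand, and capitals mark matches to any of 8 motifs on either strand.
Axl, chr7:25788684-25788983, minus strand: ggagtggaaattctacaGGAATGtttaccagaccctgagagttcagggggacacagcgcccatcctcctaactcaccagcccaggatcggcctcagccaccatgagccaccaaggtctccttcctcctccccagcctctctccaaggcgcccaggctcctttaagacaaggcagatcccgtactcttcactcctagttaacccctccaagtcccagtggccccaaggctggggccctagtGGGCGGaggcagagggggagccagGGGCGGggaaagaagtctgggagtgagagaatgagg
Egfr, chr11:16751953-16752252, plus strand: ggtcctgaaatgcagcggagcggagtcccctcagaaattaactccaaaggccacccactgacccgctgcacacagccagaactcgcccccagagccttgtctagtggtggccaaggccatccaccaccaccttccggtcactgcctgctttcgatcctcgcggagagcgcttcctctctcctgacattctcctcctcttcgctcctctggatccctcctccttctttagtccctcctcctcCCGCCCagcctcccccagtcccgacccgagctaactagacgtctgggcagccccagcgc
Igf1r, chr7:67952007-67952306, plus strand: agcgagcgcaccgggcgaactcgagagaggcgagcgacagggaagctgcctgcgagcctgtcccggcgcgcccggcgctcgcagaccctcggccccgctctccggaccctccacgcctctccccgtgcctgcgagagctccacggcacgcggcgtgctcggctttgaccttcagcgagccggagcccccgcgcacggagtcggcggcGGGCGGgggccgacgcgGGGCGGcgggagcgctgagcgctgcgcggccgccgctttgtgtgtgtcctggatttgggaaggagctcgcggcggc
Pdgfra, chr5:75152001-75152300, plus strand: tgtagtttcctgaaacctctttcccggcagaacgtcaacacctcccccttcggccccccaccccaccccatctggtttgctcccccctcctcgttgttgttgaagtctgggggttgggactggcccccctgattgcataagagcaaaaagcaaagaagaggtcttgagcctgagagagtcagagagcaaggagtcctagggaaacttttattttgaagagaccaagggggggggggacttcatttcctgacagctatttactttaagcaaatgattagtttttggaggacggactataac

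The motifs searched were AP-1 (TGANTCA), the GC box (GGGCGG), the CCAAT box (CCAAT), the E-box (CACGTG), the cAMP response element (TGACGTCA), the TATA box (TATAAA), the TEAD motif (GGAATG) and an ETS motif (CCGGAAGT). In the windows shown, the capitals are 2 GC boxes and 1 TEAD motif in Axl, 1 GC box in Egfr and 2 GC boxes in Igf1r, none of which overlap, while Pdgfra had no match to these letters. A GC box was found in 4 of the 7 receptor windows, against 46.2% of 21263 windows of protein-coding genes. An AP-1 match was found in 1 window, that of Met, against 6.99% of all windows. The E-box was found in 2 (Met and Fgfr2, against 7.84%), the TATA box in 1 (Ddr2, 12.6%) and the TEAD motif in 1 (Axl, 13.6%). The CCAAT box (38.2% of all windows), the cAMP response element (2.23%) and the ETS motif (5.15%) were found in 0. GC content was 76.0% in Igf1r and 75.7% in Met, 62.3% in Egfr, 60.3% in Axl, 51.0% in Pdgfra, 43.7% in Fgfr2 and 39.0% in Ddr2, against a median of 56.3%. The 2 windows richest in GC, those of Igf1r and Met, overlapped no peak in any library. A peak overlapped the Egfr window in both WT libraries and the Axl window in KO replicate 2 and both WT libraries, and none overlapped those of the other 5 genes. In all 4 libraries a peak overlapped 0 of the 7 receptor windows, against 23.5% of all windows.

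The gene ends of most of these receptors were accessible in some libraries, and the 3′ end of Axl in all. A summit counted as at a gene end when it lay no more than 1 kb from one of the 2 limits of the RefSeq span, and 7 of the 9 genes had a peak there in at least 1 library. These were 2 and 5 genes in KO replicates 1 and 2 and 7 and 5 genes in WT replicates 1 and 2. No library had a gene-end peak for 2 of the 9 genes, against 12380 of all 21887 protein-coding genes. Only Axl had a gene-end peak in all 4 libraries, where 26.4% of all protein-coding genes did. That peak lay at its 3′ end, also within 1 kb of an end of the neighbour Hnrnpul1. A gene-end peak in both KO and neither WT library was found for 0 receptors (0.0503% of all genes), and one in both WT and neither KO library for Pdgfrb and Egfr, a pattern of 1.69% of all genes. With equal lists the KO-only count stayed 0 of 9 (0.466% of all genes), the WT-only count was 0 (1.36%) and the count in all 4 stayed 1 (24.3%). Without KO replicate 2 the WT-only count was 4, and the count in every library was 3 without KO replicate 1 and 2 without WT replicate 2. With a library left out each pattern asks for fewer libraries, so these counts could hardly fall.

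**Figure D1:**
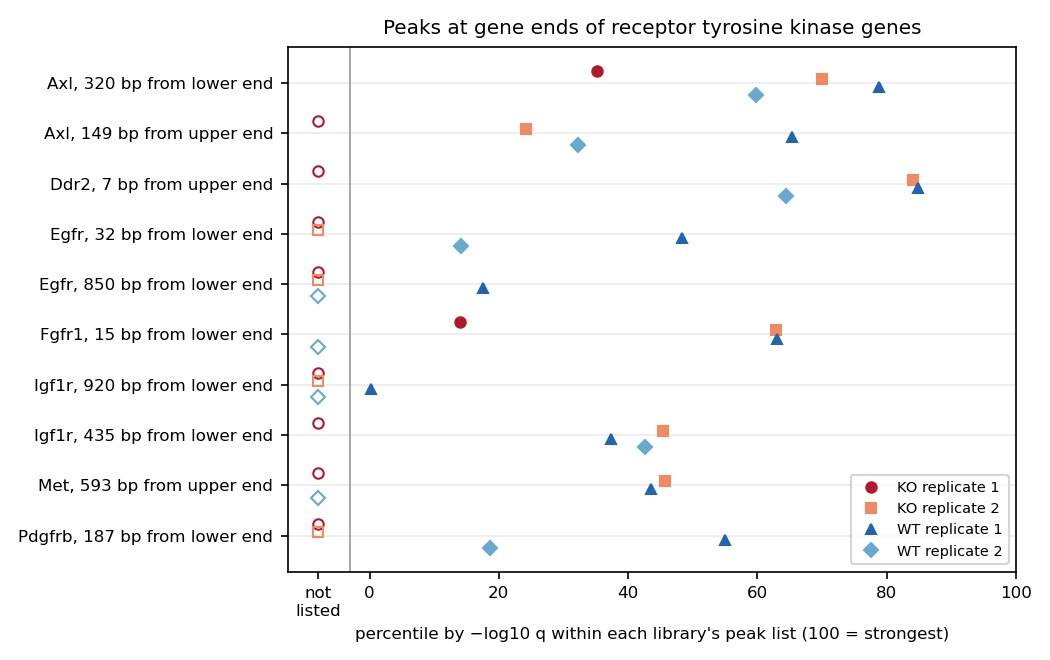
Percentile within each library's list of every gene-end site of the 9 genes; the horizontal axis is the percentile (100 = strongest) and open symbols at the left mark a site absent from that list. Pdgfrb and the Egfr site nearest the start have filled symbols for the 2 WT libraries only, and the Axl site 320 bp from its lower end is filled for all 4.

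Pdgfrb encodes the beta receptor for platelet-derived growth factor. Its site at the lower-coordinate end of the span (chromosome 18, 61044820-61045280, summit 187 bp outside the span) was in neither KO list, and had folds of 7.01 and 5.97 in WT replicates 1 and 2. The WT peaks stood at percentiles 55.0 and 18.7, so the second was among the weaker peaks of its list, and neither was in the equal lists. The table also lists an end of the gene model Gm52351 within 1 kb of this site.

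Pdgfra encodes the alpha receptor, and 0 of the 4 libraries had a peak at its gene ends. Its window held 2 sites, both inside the span. The first (chr5:75155770-75155961), 3.62 kb downstream of the RefSeq start, was in neither KO list and had folds of 9.34 and 9.19 in the WT libraries, at percentiles 61.2 and 49.7. It was still in both WT and neither KO of the equal lists, at percentiles 5.64 and 32.9. The second site, with its summit 4.06 kb downstream of the start (chr5:75156268-75156415), had a peak of fold 4.72 in KO replicate 2 and of fold 6.29 in WT replicate 1. Accessible sequence next to the first site was therefore listed in 1 KO library.

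Fgfr1, a receptor for fibroblast growth factors, had a peak with its summit 15 bp outside the lower end of its span (chr8:25518648-25518806). Its folds were 5.48 and 8.32 in KO replicates 1 and 2 and 9.30 in WT replicate 1, and WT replicate 2 had none. The percentiles were 14.0 and 62.8 in the KO libraries and 63.1 in WT replicate 1, in lists of different length. In the equal lists they were 14.0 and 34.9 in the KO libraries and 10.3 in WT replicate 1. Fgfr2, whose alternative forms bind different fibroblast growth factors, had no gene-end peak in any library. Its window of 304.4 kb held 4 sites, of which 3 were in a single list. Of these, 2 were in WT replicate 1, inside the gene at fold 7.06 and 32.7 kb upstream of its start at fold 5.97, and 1 in KO replicate 2. The other (chr7:130143548-130143687), 18.8 kb beyond the span, was in both KO lists at folds 6.99 and 5.51 and in neither WT list. It was the only site of the 89 with that pattern, at percentiles 39.4 and 20.4, and in the equal lists it was in KO replicate 1 only.

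Egfr encodes the receptor for epidermal growth factor. A peak 32 bp upstream of its start (chr11:16752076-16752287), inside the window printed above, was in neither KO list, and had folds of 8.76 and 6.79 in WT replicates 1 and 2. These peaks were at percentiles 48.3 and 14.1, and neither was among the equal lists. A second site 850 bp inside the start was in WT replicate 1 only.

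Igf1r, the receptor for insulin-like growth factor 1, had a peak 435 bp upstream of its start (chr7:67951716-67951939) in 3 libraries. It was at percentile 45.4 in KO replicate 2 and at 37.4 and 42.6 in the WT libraries, and KO replicate 1 did not list it. Met, the receptor for hepatocyte growth factor, had a gene-end peak only at its 3′ end, at percentile 45.8 in KO replicate 2 and 43.5 in WT replicate 1 (chr6:17573303-17573505).

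Axl binds Gas6 and takes part in the clearance of dying cells. The peak at its start (chr7:25788642-25788849, 42 bp upstream) was absent from KO replicate 1, had a fold of 5.14 in KO replicate 2, and folds of 9.99 and 7.56 in the WT libraries. Its percentiles were 24.3 in KO replicate 2 and 65.4 and 32.2 in the WT libraries, and in the equal lists it was in both WT and neither KO library. The site at the 3′ end of Axl (chr7:25756081-25756304), which is also an end of the neighbour Hnrnpul1, was in all 4 lists. Its folds were 6.13 and 7.47 in KO and 9.54 and 8.05 in WT libraries. In equal lists its percentiles averaged 41.3 ± 8.69 in KO and 47.5 ± 1.45 in WT libraries (SD, n = 2 each). The exact two-sided permutation test gave p = 0.667, where 2 libraries per group allow nothing below 0.33, and the groups overlapped.

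Ddr2, a collagen receptor of mesenchymal cells, had the strongest gene-end site, 7 bp outside the upper end of its span (chr1:170110751-170110969). Its folds were 12.1 in KO replicate 2 and 15.0 and 11.0 in the WT libraries, at percentiles 84.1 in KO replicate 2 and 84.9 and 64.5 in WT libraries, and KO replicate 1 did not list it. The RefSeq start in the promoter table lies 21.9 kb inside this minus-strand gene, and no peak overlapped that window. KO replicate 1, the shortest list, lacked the strongest gene-end site of Ddr2, Igf1r, Met, Egfr and Pdgfrb.

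Away from gene ends, 79 sites were spread unevenly over the 9 genes. Of these, 29 lay inside a receptor's own span, 15 at the end of another gene and 35 in other flanking sequence. The sites at ends of other genes were most often in all 4 libraries (11 of 15), against 6 of 29 inside the span and 8 of 35 in the flanks. Over all regions within 100 kb of a gene the share in all 4 libraries was 29.4%. That share was not split by class, so whether this order is particular to these genes was not tested. Igf1r had the most sites (18) and Pdgfra the fewest (2), and the density ran from 50.0 sites per Mb at Pdgfrb and 47.3 at Axl to 13.1 at Fgfr2 and 8.10 at Pdgfra. Among all protein-coding genes these densities stand at percentiles 82.7, 80.3, 31.2 and 22.0.

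**Figure D2:**
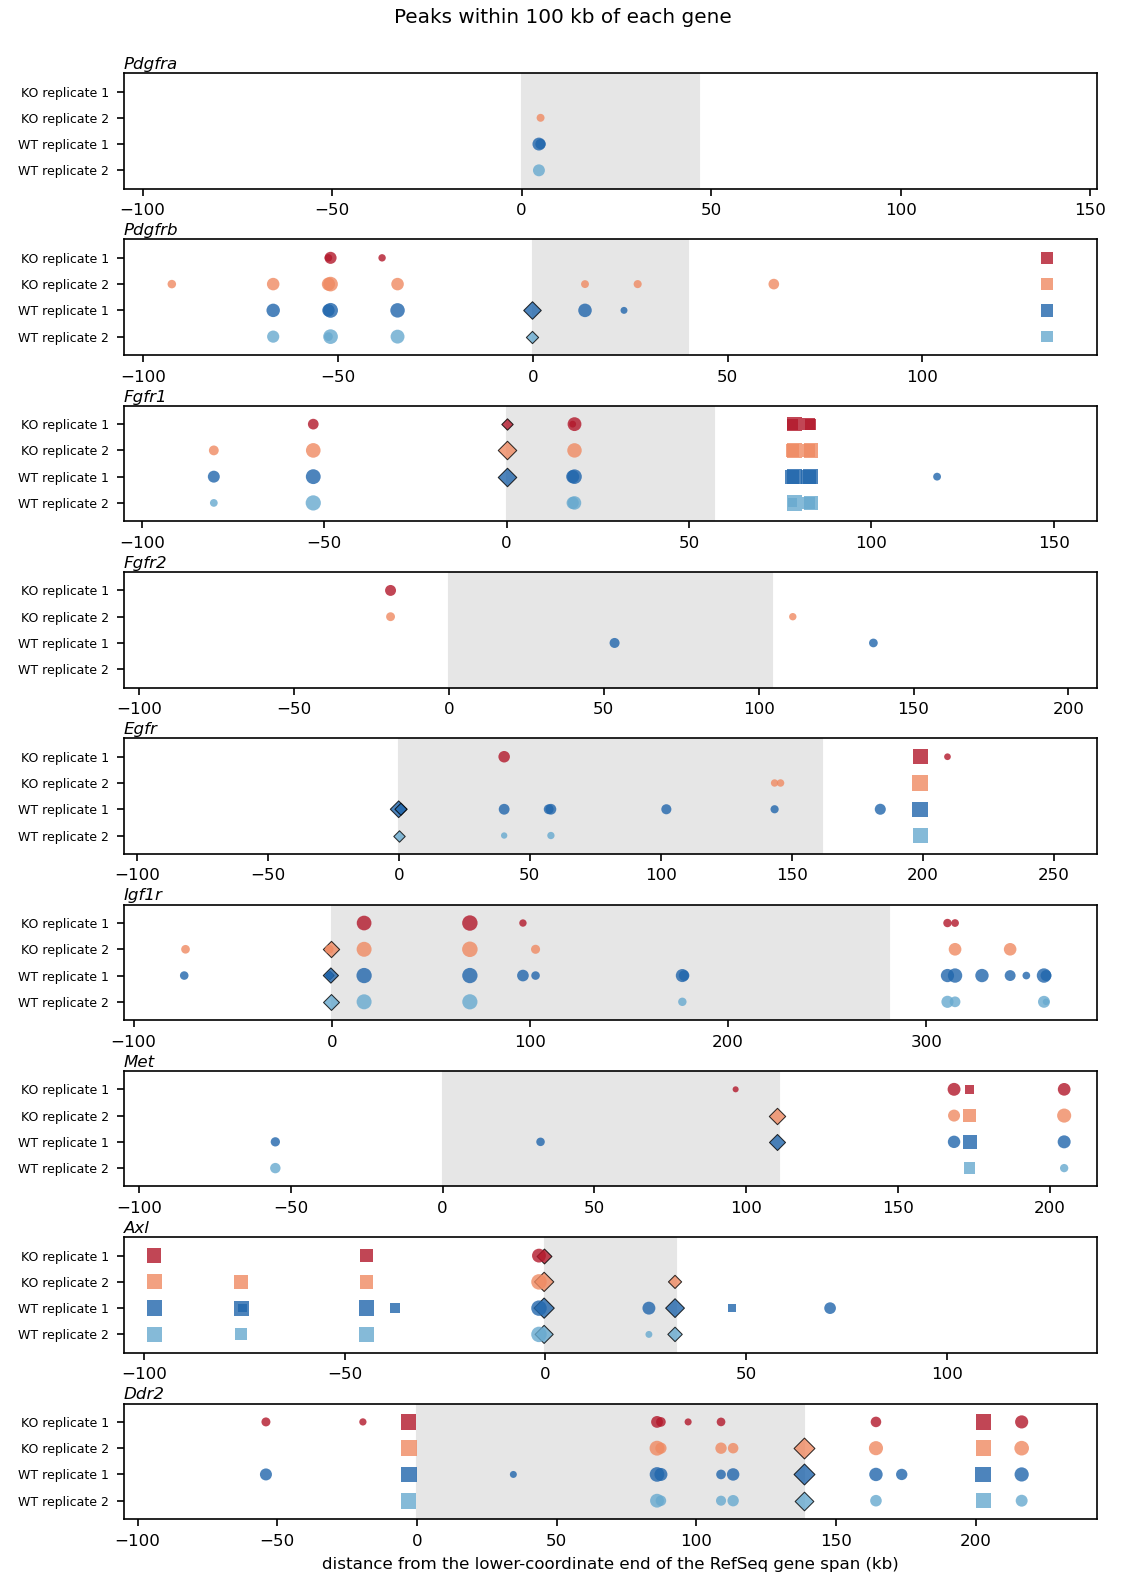
Peaks of each library within 100 kb of each gene; the horizontal axis is the distance in kb from the lower-coordinate end of the span (grey), rows are libraries and symbol area grows with the percentile. Diamonds are gene-end sites, squares sites at ends of other genes and circles all others; Pdgfra and Fgfr2 have the fewest symbols, with 2 and 4 sites.

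The strongest site inside a receptor gene lay in Igf1r, 69.7 kb downstream of its start (chr7:68021820-68022076). Its folds were 16.3 and 19.3 in KO and 20.8 and 19.3 in WT libraries, at percentiles 93.7 and 95.0 in KO and 92.2 and 90.5 in WT lists. In equal lists it averaged percentile 92.5 ± 1.74 in KO and 84.2 ± 4.32 in WT libraries (SD, n = 2 each; two-sided p = 0.33 by exact permutation, the smallest possible), and the groups did not overlap. Another site 16.3 kb downstream of the start (chr7:67968438-67968754) was also in all 4 lists, with folds of 11.5 and 13.4 in KO and 18.1 and 17.5 in WT libraries. Its equal-list percentiles overlapped (80.8 ± 4.28 in KO and 81.6 ± 2.78 in WT libraries, SD, n = 2 each; two-sided p = 1 by exact permutation).

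Beyond the end of Igf1r, within the neighbouring gene Fam169b, a site 78.1 kb from the span (chr7:68311463-68311808) was in neither KO list and had folds of 12.7 and 9.25 in the WT libraries. Its percentiles were 80.2 and 50.0, the highest of the 9 WT-only sites, and it was in both WT and neither KO library among the equal lists (51.8 and 33.4). A weaker site 1 kb further on, with folds of 6.16 and 5.28 in the WT libraries, and a site inside Igf1r 176.9 kb from the start, with folds of 9.82 and 6.64, also had this pattern in the deposited lists. A site 46.8 kb beyond the span, also inside Fam169b, was in WT replicate 1 only, at fold 11.6.

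Fgfr1 had an accessible site inside the gene 18.6 kb from its lower end (chr8:25537265-25537501) in all 4 libraries. Its folds were 9.10 and 10.5 in KO and 11.9 and 10.3 in WT libraries. In equal lists its percentile averaged 69.0 ± 4.45 in KO and 57.7 ± 0.441 in WT libraries (SD, n = 2 each; two-sided p = 0.33 by exact permutation, the smallest possible). A site 53.0 kb outside the lower end of Fgfr1 (chr8:25465612-25465883) had folds of 6.74 and 11.6 in KO and 15.0 and 18.4 in WT libraries. There the equal-list percentiles were 36.9 and 69.8 in KO and 65.0 and 87.6 in WT libraries, so the groups overlapped. The strongest site of the Fgfr1 window was at an end of its neighbour Letm2, at percentiles 83.3 and 93.0 in KO and 91.7 and 92.8 in WT lists.

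Pdgfrb had its strongest site 51.9 kb outside the lower end of the span (chromosome 18, 60992978-60993397). Folds were 6.33 and 8.99 in KO and 11.7 and 12.6 in WT libraries, and the equal-list percentiles were 51.4 and 70.6 in KO and 65.5 and 77.8 in WT libraries. A pair of weaker sites 34.7 kb and 66.6 kb outside the span, inside Slc6a7 and Camk2a, were in KO replicate 2 and both WT libraries. At the first of these the fold was 6.56 in KO replicate 2, against 12.7 and 11.8 in the WT libraries.

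In Ddr2, a site inside the gene 52.6 kb from its upper end (chr1:170058103-170058313) had folds of 7.05 and 12.4 in KO and 12.9 and 12.2 in WT libraries. The equal-list percentiles were 48.3 and 76.0 in KO and 58.4 and 63.0 in WT libraries, which overlapped. The strongest peaks of the Ddr2 window belonged to gene ends of Hsd17b7 and Uap1, with percentiles between 89.99 and 97.4 in KO and between 94.7 and 97.3 in WT lists. At 2 further sites, 25.7 kb and 77.9 kb beyond the upper end and chosen after their values were seen, both KO percentiles in the equal lists were above both WT percentiles. At the nearer site they were 35.4 and 58.1 in KO against 19.7 and 28.0 in WT libraries. At the farther one they were 63.7 and 70.2 in KO against 44.6 and 32.7 in WT libraries. Each gave two-sided p = 0.33 by exact permutation, the smallest possible. The folds overlapped, with 7.08 and 11.4 in KO and 11.9 and 9.70 in WT libraries at the nearer site. At the farther one the folds were 9.19 and 13.0 in KO and 14.6 and 10.1 in WT libraries.

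Among the remaining receptors, the sites of Egfr and Met inside the span were weak, and the strongest site of Axl lay just outside it. Egfr had 6 sites inside its span, each missing from at least 1 library, and its only site in all 4 lists was at an end of Fbxo48. That site was at percentile 92.4 and 94.6 in KO and 94.7 and 83.4 in WT lists. In Egfr a site 58.1 kb from the start was in WT libraries only (folds 6.61 and 6.06, percentiles 37.5 and 8.56). A site 102.2 kb from the start and one 22.1 kb beyond the span were in WT replicate 1 only, at folds of 6.66 and 8.07. Met had a WT-only site 55.1 kb upstream of its span, with folds of 6.15 and 8.40, and 2 sites in all 4 lists, of which 1 lay at an end of Capza2. The other, 94.1 kb beyond the span, had folds of 8.47 and 11.4 in KO and 9.90 and 6.81 in WT libraries. A further Met site, 57.8 kb beyond the span, had folds of 9.26 and 7.67 in KO libraries and 9.30 in WT replicate 1, and was not listed in WT replicate 2.

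The strongest site of the Axl window (chr7:25754778-25755408) was 1.61 kb beyond the 3′ end, inside the neighbour Hnrnpul1, and was in all 4 lists. Its folds were 9.22 and 14.5 in KO and 16.0 and 17.3 in WT libraries, at percentiles 72.6 and 94.0 in KO and 93.9 and 94.6 in WT lists. In equal lists the percentiles averaged 81.1 ± 11.96 in KO and 89.0 ± 5.37 in WT libraries (SD, n = 2 each; two-sided p = 0.667 by exact permutation), and the groups overlapped. Axl lies among close neighbours, and 6 of its 9 distal sites were at gene ends of these. The strongest of these, at ends of Bckdha and Exosc5, had folds of 11.3 and 13.8 in KO and 21.0 and 15.5 in WT libraries. A site inside Axl 6.47 kb downstream of its RefSeq start was in WT libraries only, at folds of 8.82 and 5.47.

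The shares of sites open in all libraries or in 1 genotype were near those of all regions. Sites in all 4 deposited lists numbered 26 of 89 (29.2%), against 29.4% of all regions within 100 kb of a gene. Those in both KO and neither WT library numbered 1 (1.12%), against 0.903%, and those in both WT and neither KO library 9 (10.1%), against 6.54%. In equal lists 55 sites were left. Of these 21 (38.2%) were in all 4 lists, against 46.0% of all regions, 2 (3.64%) were KO-only, against 4.95%, and 3 (5.45%) were WT-only, against 6.11%. The 2 KO-only sites were in flanks of Met and Pdgfrb, and both had a peak in at least 1 deposited WT list. The 3 WT-only sites were the Axl start, the first Pdgfra site and the Igf1r flank site inside Fam169b. Leaving out 1 library loosens each pattern, since fewer libraries must hold or lack a peak. Shares of all regions under this looser rule were not computed, so the counts that follow say nothing particular about these genes. The KO-only count was 7 without KO replicate 1, 6 without KO replicate 2 and 3 without WT replicate 1, and the WT-only count was 17 without KO replicate 2 and 29 without WT replicate 2.

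**Figure D3:**
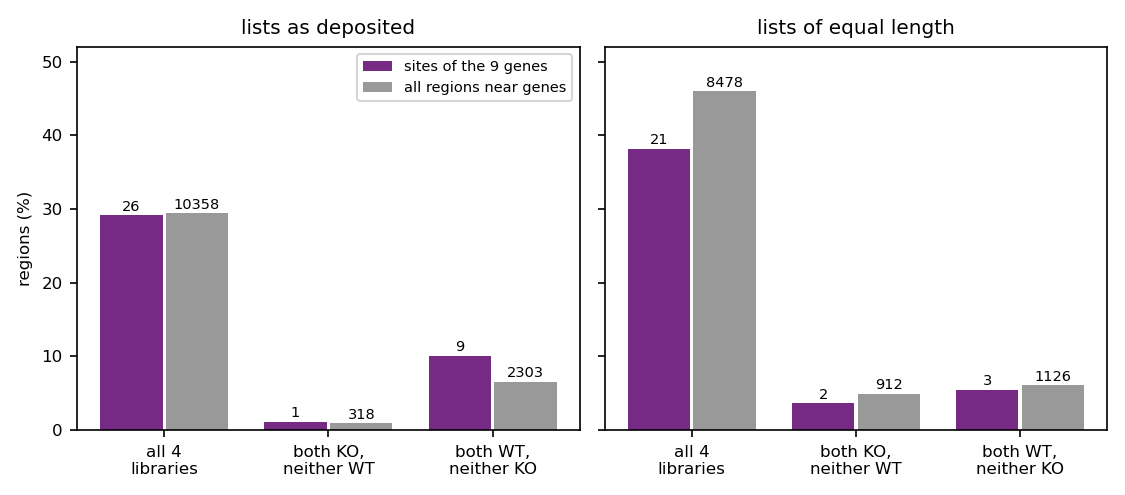
Share of sites present in all 4 libraries, in both KO and neither WT library, and in both WT and neither KO library, in percent, for the 9 genes (purple) and for all regions within 100 kb of a gene (grey), with the number of sites above each bar. The left panel uses the deposited lists and the right panel the equal lists, where the 9 WT-only sites of the left panel become 3.

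Among the 21 sites in all 4 equal lists, both KO percentiles were above both WT percentiles at 6 sites (28.6%), against 19.8% of 8478 such regions. Both were below at 3 sites (14.3%), against 25.4%. The 6 were the sites inside Igf1r and Fgfr1 described above, the 2 flank sites of Ddr2, and sites at ends of Fbxo48 near Egfr and of Hmgxb3 near Pdgfrb. All 3 lower sites were at ends of neighbours, which were Ccdc97 near Axl, Uap1 near Ddr2 and Capza2 near Met. The largest of these 3 differences was at Ccdc97, with percentiles of 65.7 and 40.8 in KO and 80.03 and 70.1 in WT libraries. Regions of whole chromosomes also differed in equal-list percentile. The mean KO minus WT difference was 2.84 points on chromosome 1, 2.06 on chromosome 8, 2.76 on chromosome 18, 0.294 on chromosome 7, -1.68 on chromosome 11, 2.87 on chromosome 6 and -2.59 on chromosome 5, against -0.716 over all. Its part in the differences at single sites was not tested.

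**Figure D4:**
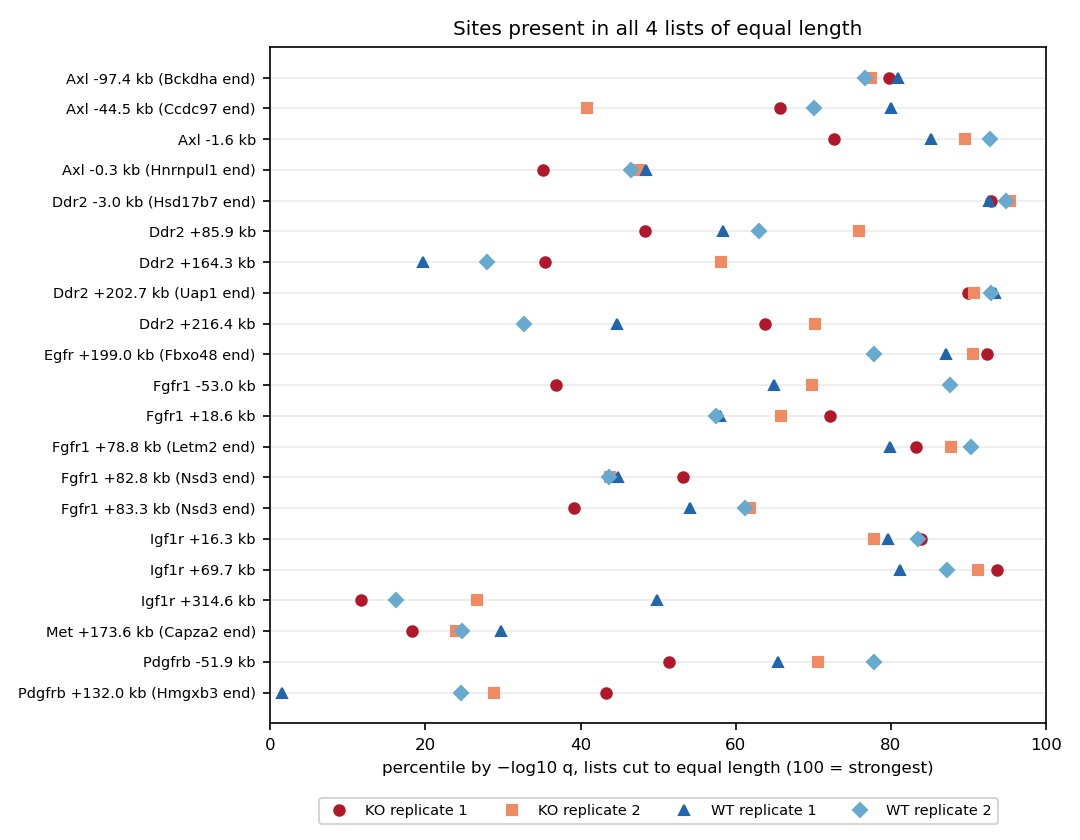
Percentile in equal lists of the 21 sites present in all 4, by library; rows give the gene, the distance of the summit from the lower-coordinate end of its span and, in brackets, another gene whose end lies there. KO symbols (red and orange) lie right of both WT symbols (blue) in 6 rows and left of them in 3.

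None of the 89 sites overlapped a region of the authors' deposited lists of differential regions. This was 0 sites for the KO-enriched list, against 0.474% of all regions near genes, and 0 for the WT-enriched list, against 0.517%. The nearest listed region to any of the 9 genes was WT-enriched and lay 515.6 kb from Igf1r.

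Other genes of these pathways were read from 5 lists arranged by role. Adaptors and effectors had accessible gene ends in 15 and 25 of 29 genes in KO and in 29 and 26 in WT libraries. Sos2 and Shc1, which like the other examples below were picked after their values were seen, were among the 15 in all 4 libraries. Immediate targets had them in 9 and 11 of 14 genes in KO and in 12 and 10 in WT libraries. Their share was above that of adaptors and effectors in KO replicate 1 (64.3% against 51.7%) and below it in the other 3 libraries. Fos, Egr1 and Ier2, genes that growth factors switch on within minutes, were in all 4. Negative regulators had 9 and 12 of 21 in KO and 14 and 11 in WT libraries, with Spry2 and Dusp6, inhibitors of MAP kinase signalling, in all 4. Other receptors had 1 and 5 of 23 in KO and 8 and 4 in WT libraries, and the ligands 2 and 6 of 24 in KO and 7 and 4 in WT libraries. Over all protein-coding genes the shares were 27.6% and 36.3% in KO and 42.5% and 34.6% in WT libraries, while those of the 9 receptors were 22.2% and 55.6% in KO and 77.8% and 55.6% in WT libraries.

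**Figure D5:**
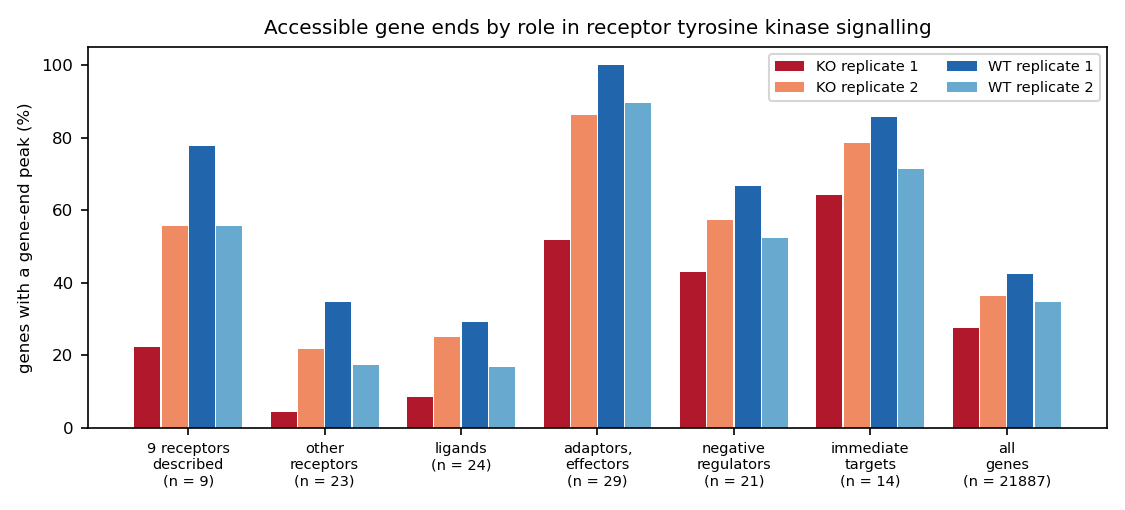
Share of genes with a gene-end peak in each library, in percent, for the 9 receptors, 5 lists of other pathway genes and all protein-coding genes, with the number of genes below each group of bars. Adaptors and effectors reach 51.7% and 86.2% in KO and 100% and 89.7% in WT libraries, and KO replicate 1 has the lowest bar in every group.

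Of the 111 genes on these lists 36 (32.4%) had a gene-end peak in all 4 libraries, against 26.4% of all genes. A peak in both KO and neither WT library was found for 0, against 0.0503%, and one in both WT and neither KO library for 3, against 1.69%. These 3 have the same presence pattern as Pdgfrb, and only they were ordered by likeness to it. By the sum over libraries of absolute percentile differences, Socs3, an inhibitor of cytokine signalling, was the nearest of the 3 to Pdgfrb (8.45), followed by Src, a non-receptor tyrosine kinase (32.7), and Ror2, a Wnt5a receptor (46.8). In equal lists Ror2 was still in both WT and neither KO library, and Socs3 and Src were not. The deposited folds of Ror2 were 13.2 and 8.20 in the WT libraries. Nras also had this pattern in equal lists, though its peak was in the deposited list of KO replicate 2. The equal-list counts were thus 2 WT-only genes of 111, against 1.36% of all genes, and 1 KO-only gene, against 0.466%. Ereg encodes epiregulin, a ligand of the Egfr protein. The authors' deposited table of KO-enriched regions holds one at its lower end (chr5:91074355-91074754). The Ereg gene-end peak was in all 4 deposited lists, with folds of 6.91 and 9.24 in KO and 7.72 and 5.86 in WT libraries, and in both KO and neither WT of the equal lists. It was the only gene of the 5 lists with a region of either deposited table at a gene end or inside its span.

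Markers of the labelled cell type were read at gene ends. Of 10 fibroblast markers, 4 and 6 had a gene-end peak in KO and 9 and 6 in WT libraries, against 27.6% and 36.3% of all genes in KO and 42.5% and 34.6% in WT libraries. Fn1, Vim, Lox and Col1a2 had one in all 4 libraries, Col1a1 in KO replicate 2 and both WT libraries, and Fbn1 in KO replicate 2 and WT replicate 1. Twist1 had one in both WT libraries, Col3a1 and Thy1 in WT replicate 1 only, and Prrx1 in none. The authors' deposited table of WT-enriched regions holds one in Fbn1, with its middle 3.697 kb from its lower end (chr2:125304092-125304491). Epithelial, endothelial, neural and pluripotent markers had 0 in any library, and of 5 immune markers 1, Cd68, had a peak, in KO replicate 2.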

How the data were processed

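ATAC-seq, in which a transposase cuts open chromatin, was compared between 2 KO and 2 WT libraries. Per the submitters' processing notes the build was mm10 and the tools, named without roles, were MACS2, DiffBind 2.2.12, DESeq2, Bowtie2, cutadapt and deepTools. The authors deposited 1 peak list per library. In these deposited lists the fold is a ratio over local background, −log10 p and −log10 q belong to the summit, and the score is 10 times −log10 q cut to a whole number. The lowest −log10 q in each list was just above 3. The authors' 2 deposited differential lists hold positions only.

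Peaks overlapping by at least 1 bp were joined into sites, with Python 3.11.15, pandas 2.3.3 and numpy 2.4.6. Gene spans and start windows were from RefSeq (GRCm38.p6, the primary coordinates of mm10). Start windows and strand of Pdgfrb and Fgfr1 were not used here, and exons and introns were not told apart. Sites named were, per gene, the strongest gene-end site, the 3 strongest distal sites, and those in both libraries of 1 genotype only. Pathway genes named by rule had that last pattern at a gene end or overlapped a differential region. The members and lists were chosen with earlier results of these data known. Single percentiles were compared by two-sided exact permutation over the 4 libraries. Site finding was tested on simulated data with isolated genes, which did not cover sites at ends of other genes. Alternatives are listed in the closing section.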

Additional observations from a re-analysis of the deposited data

How the results depend on the processing

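The counts of sites and gene ends did not move by more than 1.5 times with a −log10 q of at least 5, with summits within 250 bp joined, or with gene ends set at 500 bp or 2 kb. With a window of 50 kb, which leaves fewer sites, 17 were in all 4 libraries, against 26. With equal lists the KO-only sites were 2, the WT-only sites 3 and the WT-only gene ends 0. With 1 library left out at a time, gene ends in all libraries ran from 1 to 3, WT-only gene ends from 2 to 4, sites in all libraries from 26 to 34, KO-only sites from 1 to 7 and WT-only sites from 9 to 29. Each pattern then asks for fewer libraries. Under this looser rule the counts could hardly fall, so they do not measure the weight of a single library.

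For the 16 named sites in all 4 deposited lists, 4 had a higher and 12 a lower mean percentile in KO than in WT. These lists differ in length, so this split shows no change by itself. Each site kept its direction with ranks by fold and with a −log10 q of at least 5, where list lengths also differed. The runs on distal sites were chosen after seeing the data. With equal lists 3 of 15 reversed, to 0.377 and 1.43 points at the Ddr2 sites (Hsd17b7 end and inside the gene) and 0.357 at the Letm2 end, and the Met site 94.1 kb beyond the span had no value. Leaving out 1 library reversed the 3′ end of Axl (-34.2 to 0.663), the Bckdha end near Axl (-8.72 to 0.972), the 2 Ddr2 sites (-3.66 to 0.798 and -29.3 to 8.69), the Fbxo48 end near Egfr (-1.21 to 10.1), the site inside Fgfr1 (-6.38 to 8.29) and the Letm2 end (-8.98 to 0.716). The cause was not tested.

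The replicate numbers of the titles were also used as a block (library names in the labels carry other numbers). Exact sign-flip p-values of the 16 sites ran from 0.5, the smallest possible, to 1. Pairing cannot change a difference of means, so that at the 3′ end of Axl stayed -16.7 points in the deposited lists (-6.15 in equal lists). The deviations of same-numbered libraries, in percentiles of the deposited lists, had a correlation of -0.162 over 10977 regions. Replicate 1 had the shorter list in KO and the longer list in WT, and the part of list length in this correlation was not tested. With the numbers crossed, a pairing added after seeing the data, the lowest exact sign-flip p-value was again 0.5. As this is the smallest possible, no site could pass a threshold of 0.05 under either pairing. Peak lists without counts set the limit here, since absence from a list cannot be told from a weak peak.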
